A study of Mus musculus with 12 samples.

Results

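The 10 genes described here encode receptors, adaptors, kinases and transcription factors of insulin and insulin-like growth factor (IGF) signalling: Insr, Igf1r, Irs1, Irs2, Grb10, Pik3r1, Akt2, Inppl1, Foxo1 and Foxo3. They were listed by name and matched by symbol to mouse Ensembl identifiers. The rule uses no measured value, but the list was drawn up with earlier results of these data known. All 10 were found in both count tables, among 25442 genes that the tables share. Insulin and IGF bind receptor tyrosine kinases at the cell surface, which phosphorylate insulin receptor substrates and so recruit phosphoinositide 3-kinase (PI3K). The lipid made by PI3K brings Akt to the membrane, and active Akt phosphorylates FoxO factors and keeps them out of the nucleus. In astrocytes the pathway is known for its part in glucose handling and metabolism, and in microglia for its influence on the inflammatory state.

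The libraries came from the hippocampus of male C57Bl6/J mice injected in both hemispheres in the CA1 area at 2 months of age and studied at 4 months, 2 months post-injection. All animals received an AAV of serotype 2/9 with the astrocyte-selective GfaABC1D promoter, labelled AAV2/9_GfaABC1D-Bglob-A2AR-WPRE for the murine adenosine A2A receptor (AAV-A2A) and AAV2/9-GfaABC1D-Bglob-GFP-WPRE for the GFP control (AAV-GFP), so the controls also carried a virus, the promoter and a foreign protein. Cells were sorted with magnetic beads against the astrocyte antigen ACSA-2 (labelled astrocytes), and the cells left unlabelled were then sorted with beads against CD11b (labelled microglia). Each fraction had 3 AAV-GFP and 3 AAV-A2A libraries, named by vector and number: for ACSA-2 GFP-303, GFP-306, GFP-307, A2A-309, A2A-310 and A2A-313, and for CD11b GFP-2328, GFP-2329, GFP-2331, A2A-2343, A2A-2344 and A2A-2347. The numbers are not shared between the fractions, whose counts came in separate tables, so that cell fraction and preparation cannot be told apart. The study's supplement gives as many animals as libraries for the ACSA-2 groups. For the CD11b groups the sources used here do not say whether libraries came from separate animals, and p-values then measure the spread between these libraries.

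Promoter sequence was held for 9 of the 10 genes in 15 RefSeq windows (GRCm38.p6) of 300 bases, 250 before and 50 after a start; Insr had none. The 100 bases before the start are shown for those genes whose level fell in the AAV-A2A condition of the ACSA-2 fraction, in lower case, 5′ to 3′ on the gene's strand, with a match to TGACG, the core of the cyclic AMP response element (CRE), on either strand, in capitals. The A2A receptor is coupled to cyclic AMP production, and CREB proteins bind the CRE. In GENCODE's annotation of the same build Insr spans chr8:3122061-3279617, Irs2 chr8:10984681-11008458, Pik3r1 chr13:101680563-101768217 and Inppl1 chr7:101822632-101838229, all on the minus strand. The Irs2 stretch is at chr8:11008930-11009029 (minus strand) and lies within the gene body, but in no annotated exon, of 9530052E02Rik on the other strand. Pik3r1 has an upstream start, with chr13:101768218-101768317 before it, and an internal start, with chr13:101692631-101692730 before it, both on the minus strand and in no annotated exon, the latter within an intron of the gene. The Inppl1 stretch at chr7:101838227-101838326 (minus strand) lies within the gene body, but in no exon, of the antisense gene Gm10602, and its last 3 bases enter the first annotated exon of Inppl1. Inppl1 has a further window at chr7:101837775-101838074. Its 100 bases before the start are not printed, since they lie in part in annotated exons.
Irs2: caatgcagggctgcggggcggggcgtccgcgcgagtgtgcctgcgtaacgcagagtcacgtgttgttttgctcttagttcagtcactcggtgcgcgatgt
Pik3r1, upstream start: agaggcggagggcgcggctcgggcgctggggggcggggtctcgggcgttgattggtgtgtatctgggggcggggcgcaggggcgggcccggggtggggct
Pik3r1, internal start: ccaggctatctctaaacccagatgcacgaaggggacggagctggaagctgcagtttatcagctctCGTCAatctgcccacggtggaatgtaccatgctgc
Inppl1: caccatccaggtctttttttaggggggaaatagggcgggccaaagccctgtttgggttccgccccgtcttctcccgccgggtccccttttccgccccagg
GC content of these stretches was 62.0% for Irs2, 79.0% and 55.0% for the upstream and internal starts of Pik3r1, and 63.0% for Inppl1. The core was found in a window of 5 genes (Irs1, Grb10, Pik3r1, Akt2 and Foxo3) and in a window of 23.0% of all genes with one; it was in 20.8% of all 32851 windows of this length. Its only match in the 4 stretches printed is before the internal start of Pik3r1. The full palindromic CRE, which contains the core, and the FoxO site GTAAACA were found in no window of the 9 genes, as compared to 1.79% and 3.65% of all windows. A match is a description of letters and not evidence of binding.

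The libraries held from 33937067 to 53206974 reads on genes. Levels are CPM, a gene's counts scaled to a common library size, with TMM factors over the 12 libraries, and the libraries carry no molecular identifiers. Adora2a, the gene delivered by the vector, was at 24.9, 23.1 and 25.4 CPM in the ACSA-2 AAV-GFP libraries and at 758, 651 and 923 CPM with AAV-A2A. In the CD11b fraction it was at 3.78, 4.67 and 8.28 CPM in controls and at 18.6, 45.4 and 15.4 CPM with AAV-A2A, without overlap in either fraction. These counts include transcripts of the vector, which carries the murine gene. The summed CPM of 12 astrocyte markers was from 25384 to 39495 in the ACSA-2 libraries and from 300.3 to 547 in the CD11b libraries, and that of 12 microglial markers from 421 to 785 and from 10151 to 79094. In the CD11b fraction 3 libraries stood apart: 12 choroid plexus markers, led by Ttr, summed to 77675 CPM in GFP-2328, 64554 in GFP-2329 and 32496 in A2A-2347, and to 127, 83.9 and 14.4 CPM in GFP-2331, A2A-2343 and A2A-2344. In bulk libraries such as these, fewer cells of a type and less RNA per cell cannot be told apart.

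Within the ACSA-2 controls, levels per kb of exon spanned a wide range. Irs2, a docking protein that carries the insulin signal from receptor to PI3K, was the most abundant at 103 ± 19.7 CPM per kb. Pik3r1, which encodes the regulatory p85α subunit of PI3K, Insr, the insulin receptor, and Akt2, the Akt kinase known for control of glucose uptake, followed at 25.3 ± 4.38, 24.2 ± 7.86 and 21.6 ± 2.59 CPM per kb, and the libraries of neighbours in this order overlapped. Foxo1 and Inppl1, which encodes the lipid phosphatase SHIP2, were at 10.8 ± 0.853 and 9.65 ± 0.919 CPM per kb and overlapped as well. Foxo3 (1.62 ± 0.688) overlapped Igf1r, the IGF-1 receptor (0.992 ± 0.157). Grb10, an adaptor that restrains both receptors, was at 0.446 ± 0.145 and Irs1, the other insulin receptor substrate among the 10 genes, at 0.175 ± 0.0443 CPM per kb. Each value is a mean ± SD of 3 libraries. Of each pair, Insr was above Igf1r, Irs2 above Irs1 and Foxo1 above Foxo3 on this scale in every ACSA-2 control. Irs1 shares 30.9% of its exon bases with Gm9747, Inppl1 20.3% with Phox2a and Gm10602, Foxo1 7.78% with Gm20402 and Irs2 2.56% with 9530052E02Rik, all on the opposite strand, and their counts are uncertain to that extent, since no strand setting is given.

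**Figure D1:**
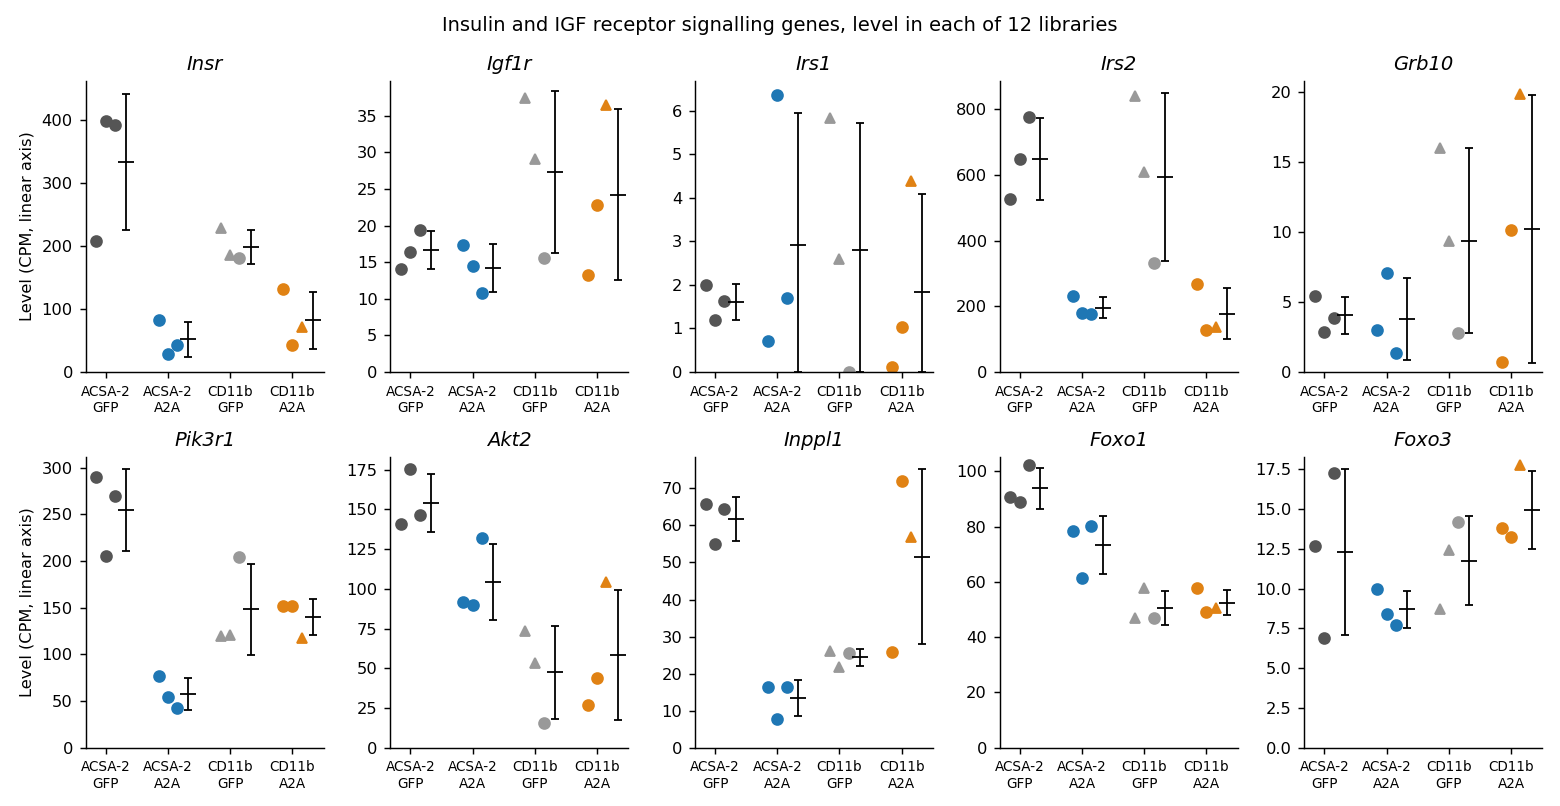
Level of each gene (CPM, linear axis from 0) in the 12 libraries by sorted fraction and vector; points are libraries, triangles the 3 CD11b libraries with more than 10000 CPM on the choroid plexus list, and the bar beside each group its mean ± SD of 3, drawn down to 0 at most. In the ACSA-2 fraction every AAV-A2A library lies below every control for Insr, Irs2, Pik3r1, Akt2, Inppl1 and Foxo1.

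To determine whether AAV-A2A in astrocytes was accompanied by another level of these genes in the astrocyte-enriched cells, the ACSA-2 fractions of both conditions were compared. In the AAV-A2A condition 4 of the 10 genes were lower than in the AAV-GFP control: Insr, Irs2, Pik3r1 and Inppl1, which act from the receptor to PI3K and the turnover of its lipid product. None was higher (0.176% of all genes were). A gene was called at a Benjamini-Hochberg adjusted p under 0.05 over all genes tested, in edgeR's quasi-likelihood test, and a log2 fold change (FC) beyond 0.32 in either direction. Of all 16451 genes tested, 3.36% were called and 3.19% were called lower. The median log2 FC was -0.50 over the 10 genes and 0.022 over all genes tested.

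Of the receptors, Insr was at 209, 399 and 392 CPM in the AAV-GFP libraries, and at 82.5, 29.0 and 43.6 CPM in A2A-309, A2A-310 and A2A-313. The groups were widely separated, and GFP-303 was the lowest of the controls. Insr fell by 2.66 on the log2 scale (SE 0.40; adjusted p = 0.00600), a level 6.34-fold lower. Igf1r, which binds IGF-1 and can pair with Insr in hybrid receptors, was at 14.1, 16.5 and 19.4 CPM with AAV-GFP and at 17.3, 14.5 and 10.8 CPM with AAV-A2A. Its groups overlapped (log2 FC -0.20, SE 0.29; adjusted p = 0.872).

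Of the adaptors, Irs2 was at 527, 648 and 776 CPM in the controls and at 233, 179 and 177 CPM in the AAV-A2A libraries, in the same order of numbers. The lowest control was thus more than 2-fold above the highest AAV-A2A library. The decrease of Irs2 was 3.25-fold (log2 FC -1.70, SE 0.20; adjusted p = 0.00279). Its level per kb in AAV-A2A libraries (31.0 ± 4.97) was still the highest of the 10 genes. Irs1 and Grb10 had the lowest levels of the 10 genes. Irs1 ranged from 1.19 to 2.00 CPM in controls and was at 0.722, 6.36 and 1.69 CPM with AAV-A2A, A2A-310 standing above all others (log2 FC 0.89, SE 0.86; adjusted p = 0.777). Without A2A-310 the log2 FC of Irs1 was -0.37. Grb10 went from 2.83 to 5.45 CPM in controls and from 1.34 to 7.04 CPM with AAV-A2A (log2 FC -0.066; adjusted p = 0.987).

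Pik3r1 was at 289, 205 and 269 CPM in the controls, and at 76.6, 53.8 and 42.5 CPM in the AAV-A2A libraries. All 3 AAV-A2A libraries were far below the controls, and Pik3r1 fell by 2.12 on the log2 scale (SE 0.24; adjusted p = 0.00248), a level 4.34-fold lower. Inppl1, whose product SHIP2 removes a phosphate from the lipid that PI3K makes, was at 65.8, 55.0 and 64.4 CPM with AAV-GFP. With AAV-A2A it was at 16.3, 7.75 and 16.3 CPM, 4.50-fold lower (log2 FC -2.17, SE 0.31; adjusted p = 0.00532). The genes that carry the signal (Insr, Irs2, Pik3r1) and this opponent of PI3K were thus lower in the same libraries.

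Akt2 was at 141, 175 and 146 CPM in controls and 91.4, 89.8 and 132 CPM with AAV-A2A. The groups did not overlap, with A2A-313 close to the lowest control, and the difference did not pass the test (log2 FC -0.53, SE 0.21; adjusted p = 0.300). Foxo1, which activates genes of fasting metabolism when Akt is inactive, was at 90.6, 88.7 and 102.3 CPM with AAV-GFP and at 78.4, 61.4 and 80.2 CPM with AAV-A2A, again without overlap and without a call (log2 FC -0.33, SE 0.18; adjusted p = 0.524). Over all, 6 of the 10 genes were lower without overlap, as compared to 11.5% of all genes tested. Foxo3, a FoxO factor known for roles in stress resistance, ranged from 6.89 to 17.3 CPM in controls and from 7.70 to 9.999 CPM with AAV-A2A, and the groups overlapped (log2 FC -0.47; adjusted p = 0.720).

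**Figure D2:**
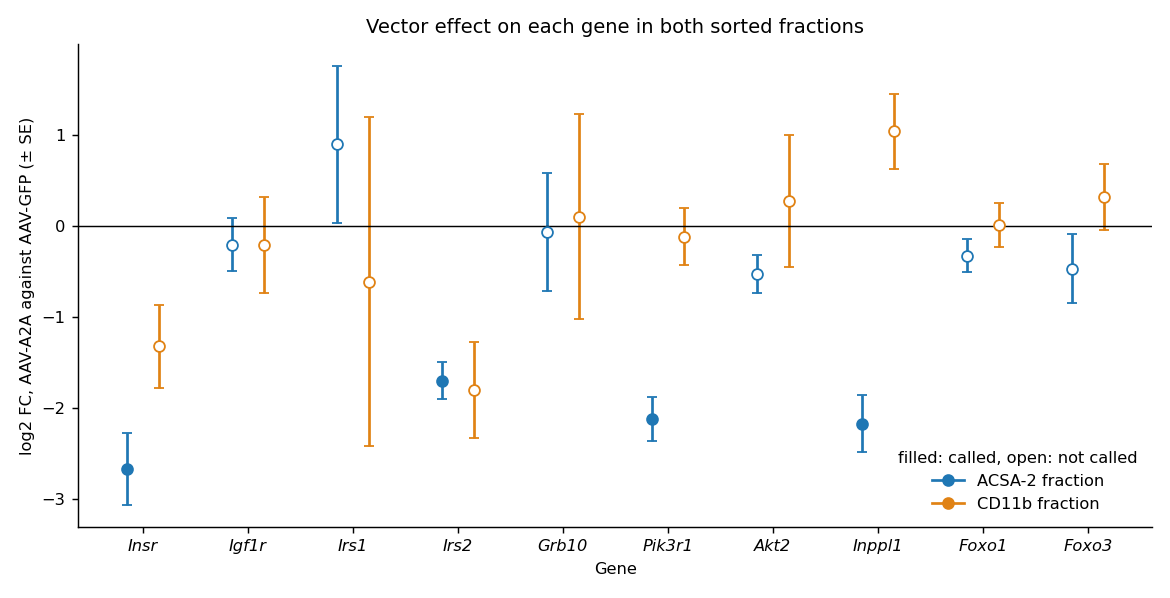
log2 FC (AAV-A2A against AAV-GFP, ± SE, edgeR) of each gene in the ACSA-2 (blue) and CD11b (orange) fractions, 3 libraries a group; filled points are called. Insr, Irs2, Pik3r1 and Inppl1 are the filled points, all below 0 and all in the ACSA-2 fraction.

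The 4 genes were called in all 6 fits that left out 1 library each, where the log2 FC stayed from -3.16 to -2.38 for Insr, from -1.85 to -1.56 for Irs2, from -2.37 to -1.95 for Pik3r1 and from -2.35 to -1.89 for Inppl1. The largest adjusted p by edgeR over these fits was 0.0465 for Insr, close to the threshold. It was 0.0213 for Irs2, 0.0196 for Pik3r1 and 0.0251 for Inppl1. In a fit of all 12 libraries, which share 1 estimate of the spread, Irs2 was not called (log2 FC -1.73; adjusted p = 0.0852). The summed CPM of 6 markers of oligodendrocyte precursors was from 375 to 579 in the controls and from 162 to 330.3 with AAV-A2A, led by Cspg4. The median log2 FC of these 6 precursor markers was -0.097, so the sum does not stand for each of them. Of these precursor markers 1 was called lower, as was 1 each of the microglial, endothelial and mural markers. Cspg4 is on both the precursor and the mural list, so the counts of these 2 lists are not independent. Choroid plexus markers summed to 667 to 782 CPM in controls and to 805 to 1248 CPM with AAV-A2A, and 8 monocyte or neutrophil markers, led by S100a9, to 2.42 to 3.74 and to 0.167 to 0.563 CPM, also without overlap. The sums of the other lists overlapped between the conditions in this fraction. The part of these markers in the result was not tested.

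The length of genes moved with the calls in the ACSA-2 fraction. When all tested genes were divided into 10 bins of like size by the merged length of their exons, the share called lower went from 0.304% in the shortest bin to 7.97% in the longest. The 10 genes all lie in the 3 bins of longest genes: Irs2 and Inppl1 (6.32 and 6.40 kb) in bin 8, where 4.75% were called lower, Irs1, Grb10, Akt2, Foxo1 and Foxo3 in bin 9, with 6.09%, and Insr, Igf1r and Pik3r1 (13.7, 16.8 and 10.1 kb) in bin 10. Once each library's trend on exon length and GC content was removed, the 4 genes were still called, with a log2 FC of -2.45 for Insr, -1.35 for Irs2, -1.97 for Pik3r1 and -1.85 for Inppl1. Igf1r, the longest of the 10, and Grb10 then had a log2 FC of 0.051 and 0.14.

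**Figure D3:**
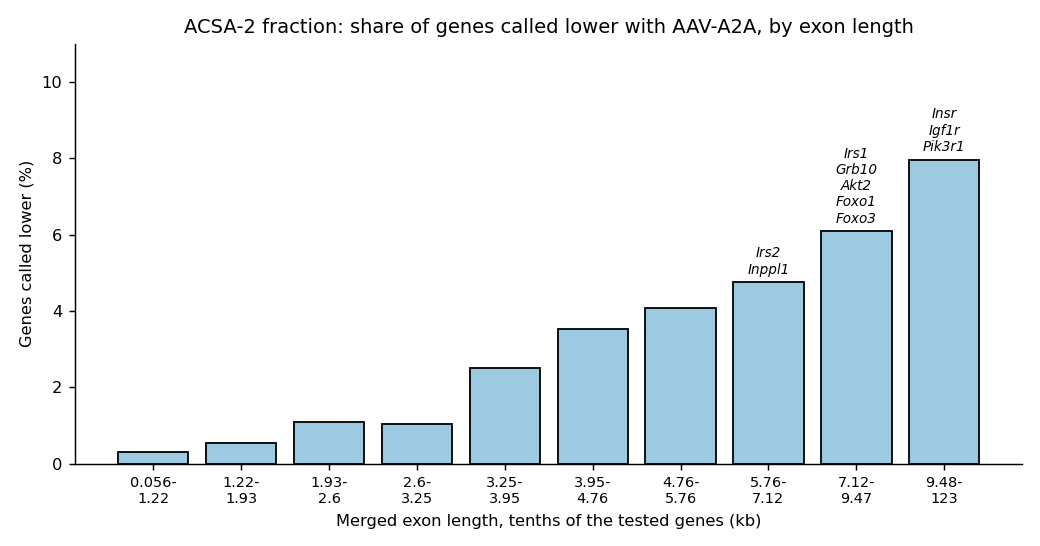
Share of genes called lower with AAV-A2A in the ACSA-2 fraction (%, bars from 0), by 10 bins of merged exon length (kb), 1642 to 1647 genes each; the 10 genes are written above their bin. The share goes from 0.304% in the shortest to 7.97% in the longest bin, and all 10 genes are in the last 3 bins.

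Other genes of the pathway were taken from a list of 110, of which 101 were tested in the ACSA-2 fraction. Of these, 9 were called, all lower (8.91%, against 3.36% of all genes). The list was chosen with earlier results of these data known, and its share was not set against genes of like exon length. The median log2 FC was -0.24 over the list. None of the 3 ligands tested was called: Ins2, insulin, was at 0.456 CPM or less in every ACSA-2 library, Igf1 ranged from 1.62 to 5.96 CPM and Igf2 from 4.96 to 12.2 CPM over both conditions. None of 6 IGF binding proteins was called, their log2 FC lying from -0.12 to 0.068.

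Among other receptors, Lrp1, a large endocytic receptor, was 2.99-fold lower (log2 FC -1.58, SE 0.26; adjusted p = 0.00921). Of 23 other adaptors 5 were lower, among them Crkl (log2 FC -2.55), Sh2b3 (-1.82), Sos2 (-1.69) and Sh2b1 (-1.16), with adjusted p-values by edgeR from 0.00306 to 0.0205. Sh2b1 and Sh2b3 (Lnk) are relatives that bind receptor and cytokine receptor kinases, Sh2b3 as an inhibitor. Sos2 is an activator of Ras and Crkl an adaptor to small GTPases.

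Of 13 downstream kinases and subunits of kinase complexes, Mtor (2.70-fold lower, adjusted p = 0.0224) and Rictor (3.29-fold lower, adjusted p = 0.00184) were called by edgeR. Mtor is a kinase and Rictor a subunit without kinase activity, and both are parts of mTORC2, the complex that phosphorylates Akt. Rictor was at 395, 480.0 and 527 CPM in controls and at 138, 132 and 148 CPM with AAV-A2A. None of 9 other PI3K subunits, of 13 other phosphatases, of 9 Akt or mTOR substrates or of 9 inhibitors of the pathway was called. Of 14 genes known as FoxO targets, Cited2, a transcriptional coregulator, was lower (log2 FC -1.44, SE 0.19; adjusted p = 0.00362) and the others did not pass the test.

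**Figure D4:**
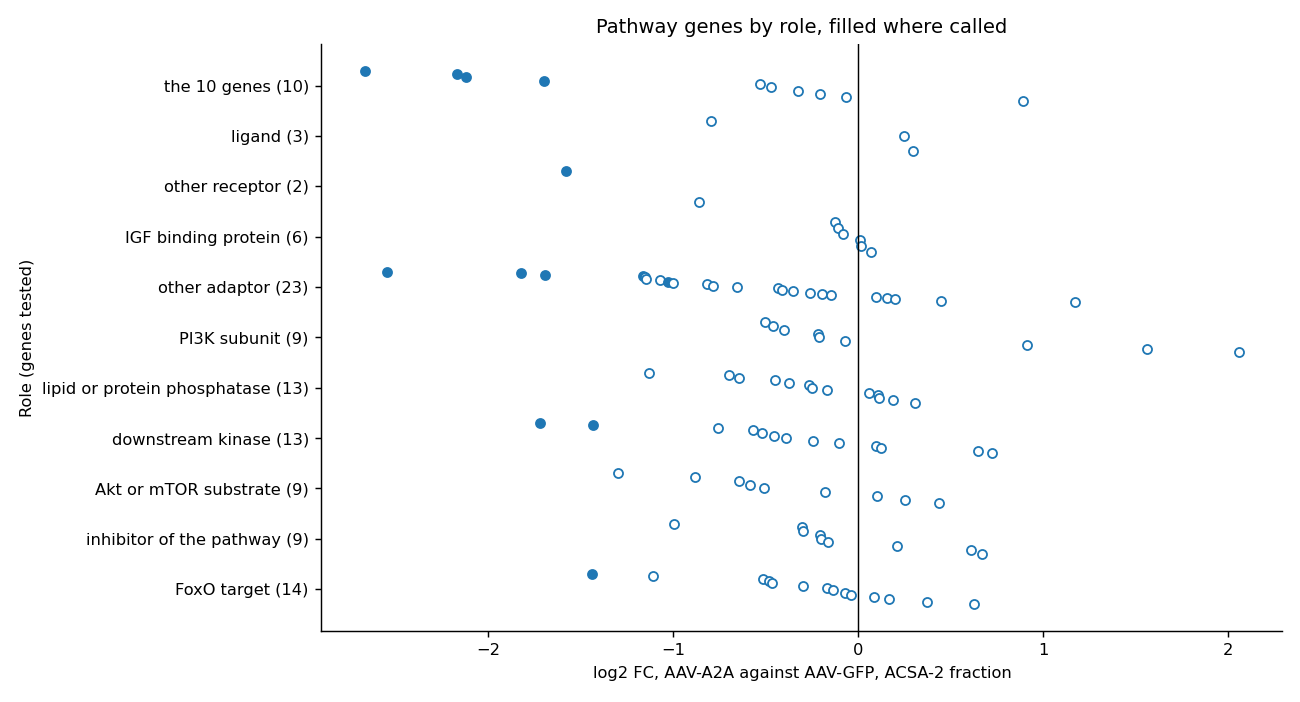
log2 FC (AAV-A2A against AAV-GFP, ACSA-2 fraction) of the 10 genes and of the other pathway genes by role, with the number tested in brackets; each point is a gene, filled where called. All filled points are below 0: 4 of the 10 genes, Lrp1, 5 adaptors, Mtor and Rictor (both under downstream kinase, though Rictor is a subunit and not a kinase) and Cited2.

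The same comparison was made in the CD11b fraction, sorted from cells other than those for which the vector's promoter is selective. None of the 10 genes was called, nor was any of the 16949 genes tested by edgeR (0.0%). DESeq2 called 2.46% of its tested genes and limma-voom 0.0%, and none of the 10 genes by either. At an unadjusted p under 0.05, edgeR had Irs2 and Insr lower and Inppl1 higher, and 16.0% of all genes.

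Irs2 was at 842, 608 and 332 CPM in GFP-2328, GFP-2329 and GFP-2331, and at 269, 127 and 138 CPM in A2A-2343, A2A-2344 and A2A-2347. Insr was at 229, 186 and 180.3 CPM in controls and at 131, 42.8 and 72.1 CPM with AAV-A2A. Every AAV-A2A library was below every control for both genes, as for 10.3% of all genes tested. The log2 FC was -1.80 for Irs2 (SE 0.53; adjusted p = 0.280) and -1.32 for Insr (SE 0.45; adjusted p = 0.282). Without the 3 choroid plexus rich libraries, which leaves GFP-2331 as the only control, assumed to vary like the others, the log2 FC was -0.77 for Irs2 and -1.07 for Insr, each with an adjusted p of 1.00. This fit was chosen after seeing the data.

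Inppl1 was at 26.1, 21.9 and 25.5 CPM in the CD11b controls and at 25.7, 72.0 and 57.0 CPM with AAV-A2A. A2A-2343 lay within the controls and the other two were above them (log2 FC 1.04, SE 0.41; adjusted p = 0.302). Pik3r1 was at 120.0, 121 and 204 CPM in controls and 151, 151 and 117 CPM with AAV-A2A, with overlap (log2 FC -0.12, SE 0.31; adjusted p = 0.870). Foxo1 was at 46.8, 57.8 and 47.0 CPM in controls and at 57.7, 49.1 and 50.5 CPM with AAV-A2A. Its log2 FC of 0.011 (SE 0.24) was the smallest of the 10 in this fraction, and its sign depended on the scaling. Foxo3 ranged from 8.70 to 14.2 CPM in controls and from 13.2 to 17.8 CPM with AAV-A2A, also with overlap.

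Levels of the 4 remaining genes differed widely between CD11b libraries of 1 group. Igf1r was at 37.4, 29.1 and 36.5 CPM in the choroid plexus rich libraries GFP-2328, GFP-2329 and A2A-2347, and at 15.5, 13.2 and 22.9 CPM in GFP-2331, A2A-2343 and A2A-2344. Akt2 was at 73.5, 53.4 and 105 CPM in the former and at 15.7, 26.9 and 43.7 CPM in the latter. Irs1 had 5.82, 2.59 and 4.39 CPM against 0 counts in GFP-2331, which allows up to 0.0781 CPM (3 counts, counting error only), and 0.114 and 1.04 CPM in A2A-2343 and A2A-2344. For these 3 genes all choroid plexus rich libraries were above the other 3, whatever the vector, as was the case for 18.7% of 16640 genes, and Pik3r1 was below in all of them, as were 16.7% of genes. Grb10 was at 16.0, 9.31 and 19.8 CPM in the former and at 2.81, 0.710 and 10.2 CPM in the latter, with overlap. The ligand Igf2 moved with the same libraries, at 42.4, 22.4 and 21.5 CPM against 1.82, 1.14 and 1.099 CPM. These libraries are a division by their own marker content and not a group of the study, and no test was made between them. The part of choroid plexus RNA in these levels was not tested.

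**Figure D5:**
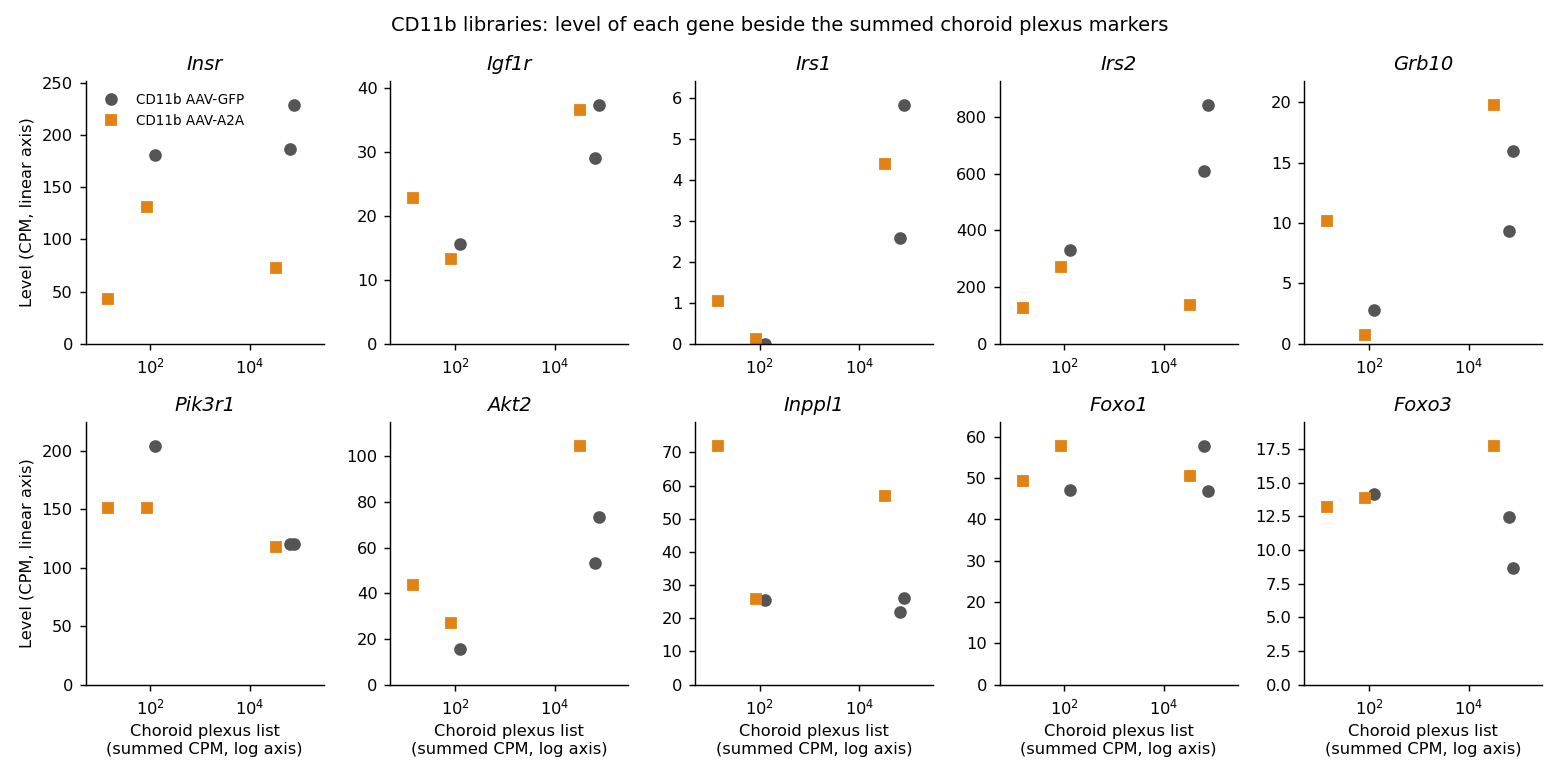
Level of each gene (CPM, linear axis from 0) in the 6 CD11b libraries against the summed CPM of 12 choroid plexus markers in the same library (log axis); circles are AAV-GFP and squares AAV-A2A. The 3 libraries on the right of each panel are GFP-2328, GFP-2329 and A2A-2347, which are highest for Igf1r, Irs1 and Akt2.

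Other markers differed by vector in the CD11b fraction. The 6 red blood cell genes, led by Hbb-bs, summed to 1015 to 5989 CPM in controls and to 58.5 to 252 CPM with AAV-A2A. Endothelial markers (10 genes, led by Itm2a) summed to 831 to 2338 and to 539 to 664 CPM, ependymal markers (8 genes, led by Ccdc153) to 235 to 569 and to 49.2 to 189 CPM, and neuronal markers (10 genes, led by Camk2a) to 30.8 to 211 and to 6.05 to 17.2 CPM, all without overlap. Their part in the values of Irs2 and Insr was not tested. Of the pathway list, 104 genes were tested in this fraction and none was called by edgeR or limma-voom, while DESeq2 called Igfbp7 (log2 FC -1.29; adjusted p = 0.0174) and Gadd45a (-1.74; adjusted p = 0.0268) lower and Gab2 (2.20; adjusted p = 0.0455) higher. At an unadjusted p under 0.05 by edgeR, 19 were higher and 6 lower, as compared to 9.68% and 6.27% of all genes. Of 10 other PI3K subunits, 8 were among the 19, including Pik3cd (log2 FC 2.30, SE 0.71) and Pik3cg (2.21, SE 0.80), the catalytic subunits typical of leukocytes, both with an adjusted p of 0.280 or more by edgeR. These PI3K subunits and the 3 genes called by DESeq2 are named after their values were seen. Microglial markers were higher in the libraries poor in choroid plexus markers, of which AAV-A2A had 2 and AAV-GFP 1. Gene length moved with the vector here too, and in the other direction: the median log2 FC went from -0.83 in the bin of shortest genes to 0.34 in the bin of longest, and over the list it was 0.44, against -0.050 over all genes.

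An effect called in 1 fraction and not in the other need not differ between them, and the difference was tested as an interaction of fraction and vector over all 12 libraries. The vector effects share no library between the fractions. Inppl1 was called, its log2 FC in CD11b exceeding that in ACSA-2 by 3.25 (SE 0.54; adjusted p = 0.0438), with 0.403% of all 18602 genes called. Inppl1 was lower in all 3 AAV-A2A libraries of the ACSA-2 fraction and, in the CD11b fraction, above every control in 2 of 3. The call was lost without any 1 of the ACSA-2 libraries, without GFP-2328, GFP-2329, A2A-2344 or A2A-2347 and, with the choroid plexus rich libraries left out, at an adjusted p of 0.236 (difference 3.14). It was also lost once the trend on exon length and GC content was removed (difference 2.45; adjusted p = 0.172). Over the fits that left out 1 library, the difference stayed from 2.94 to 3.58.

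Pik3r1 differed by 2.05 (SE 0.44; adjusted p = 0.0615) and was not called by edgeR, while DESeq2, which called 9.03% of its genes, called it at an adjusted p of 0.00155. The difference for Insr was 1.40 (SE 0.65; adjusted p = 0.264). For Irs2 it was -0.022 with an SE of 0.55 (adjusted p = 0.989), so a difference of the size of that SE in either direction could not have been seen. Of the pathway list only Sh2b1 was called, with a difference of 1.74 (SE 0.32; adjusted p = 0.0459). It was at 39.6, 39.4 and 35.5 CPM in CD11b controls and at 43.5, 63.9 and 62.1 CPM with AAV-A2A, and was not called in that fraction (adjusted p = 0.389 by edgeR).

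Finally, the controls of both fractions were compared, to give the level of each gene in the astrocyte-enriched and the microglia-enriched cells. These are the same AAV-GFP libraries as above, so the values are not independent of the vector comparisons. Of the CD11b controls, GFP-2328 and GFP-2329 are rich in choroid plexus markers. Their microglial markers summed to 10151 and 21204 CPM, against 74665 CPM in GFP-2331, so CD11b levels here are not those of microglia alone. Inppl1 and Foxo1 were lower in the CD11b than in the ACSA-2 controls, and no gene of the 10 was called higher. Of all 16980 genes, 25.8% were called, and 12.7% were called lower in CD11b, so that 2 of 10 is near the background. Of the 10 other PI3K subunits 5 were higher in CD11b, among them Pik3cg (log2 FC 6.95, SE 1.20; adjusted p = 0.00905) and Pik3cd (3.73, SE 0.62; adjusted p = 0.00790).

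Inppl1, at 21.9 to 26.1 CPM in the CD11b controls, was 2.54-fold lower than in the ACSA-2 controls (log2 FC -1.34, SE 0.23; adjusted p = 0.00846), and was called in all 6 fits that left out 1 library. Foxo1, at 46.8 to 57.8 CPM, was 1.87-fold lower (log2 FC -0.90, SE 0.22; adjusted p = 0.0249), and was called in 1 of those 6 fits, the one without GFP-2331. Akt2 and Pik3r1 were, like these, lower without overlap, as were 25.3% of all genes, but were not called by edgeR, with a log2 FC of -1.71 (adjusted p = 0.0538) and -0.79 (adjusted p = 0.104). DESeq2 (adjusted p = 0.0133) and limma-voom (adjusted p = 0.0347) called Akt2 lower, and neither called Pik3r1. With GFP-2328 and GFP-2329 left out, the log2 FC of Akt2 was -3.27, a value that rests on GFP-2331 alone. Insr had a log2 FC of -0.76 and Irs2 of -0.14, with adjusted p-values by edgeR of 0.126 and 0.818. In the choroid plexus rich GFP-2328 and GFP-2329, Irs2 was at 842 and 608 CPM. In GFP-2331 it was at 332 CPM, below the 527 to 776 CPM of the ACSA-2 controls. Per kb of exon, Irs2 was again the highest in CD11b controls at 93.9 ± 40.4 CPM per kb, clear of Pik3r1 at 14.7 ± 4.81 and Insr at 14.4 ± 1.92, which overlapped each other. Irs1 was the lowest at 0.306 ± 0.319 CPM per kb and overlapped Grb10 at 1.03 ± 0.725.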

How the data were processed

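Total RNA from MACS-sorted hippocampal cells was amplified by the authors with SMART-Seq v4 and tagmented with Nextera XT, which mark neither strand nor single molecules. The submitters' processing notes name bcl2fastq, cutadapt 1.10, STAR 2.5.3, HTSeq 0.6.1p1 and mm10. The authors deposited raw read counts per Ensembl gene, 1 table a fraction (27866 and 30359 genes). Symbols, lengths and positions were from GENCODE M21, in which 27813 and 30289 identifiers were found. Counts were tested with edgeR 4.0.16 in R 4.3.3 (TMM, filterByExpr, robust quasi-likelihood test), each fraction fitted alone, the controls together, and all 12 libraries for the interaction. Levels compared across the fractions rest on tables counted separately. Alternatives were DESeq2 1.42.0, limma-voom (limma 3.58.1), DESeq2 size factors, other filters on low counts (none, or 10 counts in every library), a fit of all libraries, removal of each library's length and GC trend (splines), and leaving out each library. No library pair of a group was a duplicate (chi-square per degree of freedom from 51.58 to 1199). The scripts were tested on simulated data. The genes named are the 10 listed genes, Adora2a, the ligands, the pathway genes called in a vector comparison and the most abundant gene of each marker list described; 1 called pathway gene is counted but not reported here. The 10 genes and the lists were chosen with earlier results of these data known.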

Additional observations from a re-analysis of the deposited data

Results flagged for a closer look

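Inppl1 was flagged because the vector effect differed between the fractions in the interaction test: the log2 FC in CD11b less that in ACSA-2 was 3.25 (adjusted p = 0.0438 by edgeR's quasi-likelihood test), with lower levels in 3 of 3 AAV-A2A libraries of the ACSA-2 fraction and levels above every control in 2 of 3 of the CD11b fraction. Sh2b1 was flagged by the same test, with a difference of 1.74 (adjusted p = 0.0459 by edgeR). Its log2 FC was -1.16 in ACSA-2, where it was called, and 0.53 in CD11b, where it was not (SE 0.28; adjusted p = 0.389 by edgeR). Fits without 1 library are not given for Sh2b1.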

How the results depend on the processing

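In the ACSA-2 fraction the 4 calls held under every alternative but the fit of all 12 libraries, which called 3, and in the CD11b fraction none of the 10 genes was called under any. Leaving out 1 library gave 4 to 4 calls in ACSA-2, 0 to 0 in CD11b, 1 to 6 between the control fractions (6 without GFP-2331) and 0 to 2 for the difference of vector effects. For that difference DESeq2 and the filter at 10 counts each called 2 genes, while DESeq2 size factors (Inppl1 3.17, adjusted p = 0.0505), removal of the length and GC trend, and leaving out the choroid plexus rich libraries each called 0. With these left out, an alternative chosen after seeing the data, 4 genes were called between the control fractions, against GFP-2331 as the only CD11b library, which is assumed to vary like the others. Removing the length and GC trend moved the median of all genes in the CD11b comparison by 0.13 (log2), and its values there are to be read against that shift. No paired analysis was possible because the groups share no replicate numbers in the labels.

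Signs turned among genes with no call in the comparison concerned, and the cause was not tested. In the ACSA-2 fraction, removal of the length and GC trend gave Igf1r 0.051 and Grb10 0.14. In the CD11b fraction it gave Grb10 -0.35, Akt2 -0.22, Foxo1 -0.17 and Foxo3 -0.059, limma-voom gave Irs1 0.49 and Grb10 -0.49, the filter at 10 counts Grb10 -0.0046 and Foxo1 -0.075, and DESeq2 size factors Foxo1 -0.018. Leaving out the choroid plexus rich libraries gave Igf1r 0.19, Irs1 7.36 and Foxo3 -0.093. Between the control fractions it gave Igf1r -0.076, Irs1 -8.90, Grb10 -0.50 and Foxo3 0.23, and limma-voom gave Irs1 -1.22. Of these Irs1 is 1 of the 4 called, at -8.90, a value set by the prior count, since the remaining control has 0 counts.

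For the difference of vector effects Igf1r was -0.037 by DESeq2, -0.052 with its size factors, -0.049 with the filter at 10 counts and -0.47 with the length and GC trend removed, which also gave Grb10 -0.46 and Foxo1 -0.054. For the same difference limma-voom gave Irs1 0.15 and Grb10 -0.0022, and leaving out the choroid plexus rich libraries gave Irs1 6.60 and Irs2 0.99.

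Leaving out 1 library turned the sign of Irs1 (-0.37 to 1.35) and Grb10 (-0.87 to 0.33) in ACSA-2. In CD11b the ranges were -0.52 to 0.76 for Akt2, -0.069 to 0.12 for Foxo1, -0.89 to 0.76 for Grb10, -0.69 to 0.12 for Igf1r, -2.39 to 0.53 for Irs1 and -0.24 to 0.14 for Pik3r1. Between the control fractions they were -0.36 to 0.34 for Foxo3, -0.31 to 1.38 for Irs1 and -0.47 to 0.15 for Irs2, and for the difference of vector effects -0.70 to 0.99 for Grb10, -0.37 to 0.33 for Igf1r and -0.46 to 0.32 for Irs2. Irs1 and Grb10 had the lowest mean CPM of the 10 genes in every group, and the part of depth in these signs was not tested.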
